A study of Ovis aries with 26 samples.

Results

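Sheep embryos at the 2-cell stage (2C, 4 libraries) were compared with mature oocytes, which rest at metaphase II of meiosis (MII, 2 libraries). These 6 libraries belong to a series of 26 that covers 8 stages up to the expanded blastocyst. For 2C, mature oocytes were fertilized in vitro with capacitated sperm and the zygotes were grown in embryo culture medium, and the MII group is mature oocytes. Poly(A) RNA was amplified from direct lysates with Smart-seq2, a full-length cDNA method for very small amounts of RNA. Breed, animal and the number of oocytes or embryos pooled per library are not in the labels, and replicates are not said to be separate cultures, so the p-values cover the spread among these 6 libraries alone, which may be technical. All genes with at least 1 FPKM (fragments scaled to the gene's length and to the library's assigned total) in at least 2 of the 6 libraries were compared, which left 9716 of 30186 genes. A difference is always 2C minus MII in log2(FPKM + 1), a scale that compresses differences of genes around or under 1 FPKM. A gene was called, and is described as having risen or fallen, when limma's moderated test gave a Benjamini-Hochberg adjusted p under 0.05 and the difference reached 1 in either direction.

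A mature oocyte is transcriptionally silent and carries a store of maternal messenger RNA made during its growth. After fertilization, meiosis is completed and the first cell cycles run largely on this store: some transcripts lose their poly(A) tail and are degraded, others are kept with a short tail and lengthen it when they are translated. In sheep, large-scale transcription from the embryo's own genome is known to begin later, around the 8C and 16C stages. FPKM is a share of each library and the RNA was selected through its poly(A) tail, so the number of transcripts and the length of their tails cannot be told apart here, nor can fewer cells of a type and less RNA per cell. Tail length was not measured.

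The 2 MII libraries differed from each other and are given separately throughout, as MII 1 and MII 2. Reads assigned to genes, recovered from the steps of the deposited values, numbered 32.21 to 35.26 at 2C, against 27.19 in MII 1 and 32.95 in MII 2, in units of 1e6. At 1 FPKM or more, 8972 to 9562 genes were found per 2C library, against 8496 in MII 1 and 8644 in MII 2. Across tested genes, the Pearson correlation of log2(FPKM + 1) with the 2C libraries was 0.906 to 0.931 for MII 1 and 0.95 to 0.955 for MII 2, and 0.965 between the MII libraries, as a description. Mitochondrially encoded protein genes took 0.57% to 0.89% of reads at 2C, against 1.77% in MII 1 and 0.89% in MII 2, and cytosolic ribosomal protein genes took 0.34% to 0.52% at 2C, against 0.92% and 0.43%. The summed level of 10 oocyte identity markers was 4204.1 to 5389.3 FPKM at 2C, against 6156.4 FPKM in MII 1 and 5450.1 FPKM in MII 2, and every one of them reached 1 FPKM in at least 1 library. The sperm markers PRM2, TNP2, ACR and IZUMO1 were listed at 0 in all 6 libraries, and 17 of 22 sperm and testis markers were below an FPKM of 1 in all of them.

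At 2C, 835 genes (8.59% of those tested) were higher than in MII oocytes and 340 genes (3.50%) were lower. The 2C and MII values did not overlap for 833 of the higher and 330 of the lower genes. Among all tested genes, 35.8% had every 2C value above both MII values and 14.5% had every 2C value below both. Of the higher genes, 791 were at least 1 above MII 1 on the log2 scale, 530 were at least 1 above MII 2 and 486 were at least 1 above both. Of the lower genes, 320 were at least 1 below MII 1, 188 were at least 1 below MII 2 and 168 were at least 1 below both. The tested genes as a whole stood a median of 0.23 above MII, 0.33 against MII 1 and 0.13 against MII 2, and the split between higher and lower depended on the scale: on the TPM scale 1605 were higher and 311 lower, median-ratio scaling gave 432 and 591, and quantile normalization gave 457 and 512. The all-gene medians under these 3 scales were 0.41, 0.005 and 0.02. Without MII 1, 402 genes were higher and 124 lower, and without MII 2 the numbers were 1339 and 627. Leaving out 2C 3 gave 681 higher and 218 lower. In a fit over all 26 libraries, 775 were higher and 358 lower, and 231 and 73 when MII 1 was also left out. Calls that held without each of the 6 libraries numbered 332 higher (3.42%) and 89 lower (0.916%), and 265 (2.73%) and 83 (0.854%) of these also held under all 3 other scales.

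**Figure D1:**
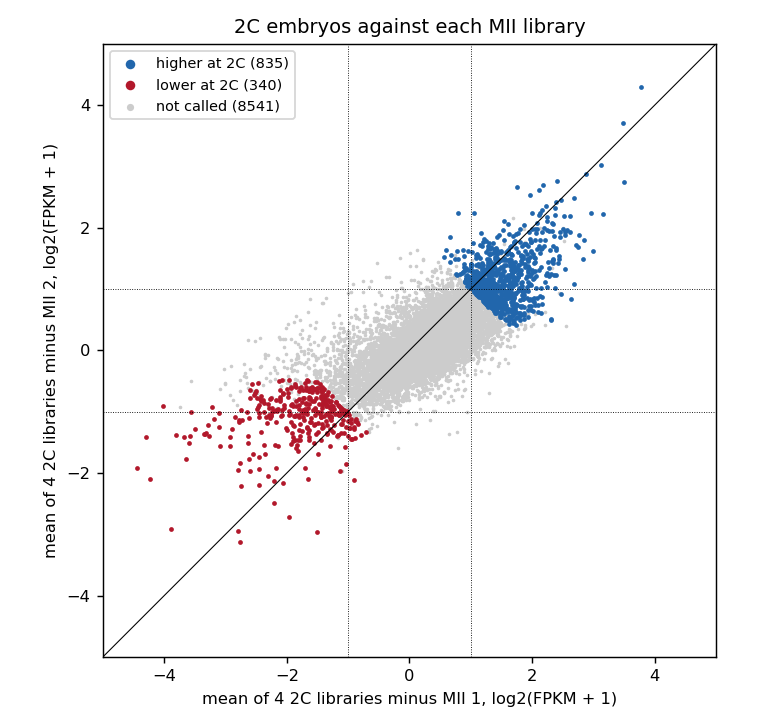
Difference of each of the 9716 tested genes between the mean of the 4 2C libraries and MII 1 (x axis) or MII 2 (y axis), on the log2(FPKM + 1) scale, with the 835 higher genes in blue, the 340 lower genes in red and all others in grey. Dotted lines mark differences of 1, and many red points lie further from 0 against MII 1 than against MII 2.

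The genes named first were 15 higher and 14 lower called genes, out of the 15 in each direction with the largest differences, among genes with a symbol, a mean of at least 5 FPKM in a stage and no overlap of the stages, taking first those still called without each of the 6 libraries. LUM, which encodes the extracellular matrix proteoglycan lumican, stood at 134, 179.9, 61.1 and 37.4 FPKM in the 4 2C libraries, against 5.37 and 3.41 FPKM in MII 1 and MII 2 (difference 4.04 ± 0.57 SE, adjusted p = 0.0047). The values of the stages were far apart, and 2C 1 and 2C 2 were the highest. GSTA1, a glutathione S-transferase, had 13.1, 23.4, 11.1 and 5.99 FPKM at 2C, against 0.16 and 0 FPKM in MII 1 and MII 2 (difference 3.60 ± 0.42 SE, adjusted p = 0.0026), so it was at or close to 0 in both oocyte libraries and above 5 FPKM in every 2C library. PTCD2, a mitochondrial protein of the pentatricopeptide repeat family that acts in RNA processing, stood at 28.1, 42.7, 58.7 and 43.4 FPKM at 2C and 3.9 and 4.26 FPKM in MII 1 and MII 2 (difference 3.08 ± 0.27 SE, adjusted p = 0.0013). Fitted over all 26 libraries, the calls of LUM (difference 4.30, adjusted p = 0.12) and GSTA1 (difference 3.70, adjusted p = 0.085) ended without MII 1, and LUM (adjusted p = 0.069) ended without MII 2.

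UTP11, a component of the small subunit processome that assembles ribosomes, was abundant. It had 460.1, 464, 456 and 446 FPKM at 2C, against 57.4 and 95.5 FPKM in MII 1 and MII 2 (difference 2.61 ± 0.21 SE, adjusted p = 0.0012), with 2C libraries within a narrow range and far above both oocyte libraries. NHP2, a core protein of H/ACA small nucleolar ribonucleoproteins and of telomerase, stood at 19.5, 18.9, 17.9 and 12.5 FPKM at 2C, against 1.79 and 2.21 FPKM in MII 1 and MII 2 (difference 2.58 ± 0.21 SE, adjusted p = 0.0012). ZNF134, a zinc finger protein, had 32, 32.8, 31.2 and 28.8 FPKM at 2C and 2.61 and 5.9 FPKM in MII 1 and MII 2 (difference 2.69 ± 0.25 SE, adjusted p = 0.0016). In each case no 2C value came near an MII value. PRDX1, a peroxiredoxin that removes hydrogen peroxide, stood at 571, 566, 575 and 515 FPKM at 2C, against 107 and 111 FPKM in MII 1 and MII 2 (difference 2.35 ± 0.14 SE, adjusted p = 0.00075), and here both oocyte libraries were alike. ABCG2, a membrane efflux transporter, had 29.6, 26, 59.2 and 49 FPKM at 2C, against 5.91 and 7.66 FPKM in MII 1 and MII 2 (difference 2.36 ± 0.33 SE, adjusted p = 0.0047), with 2C 3 and 2C 4 above 2C 1 and 2C 2. HEXIM2, an inhibitor of the transcription elongation kinase P-TEFb, had 17.8, 28.6, 29.9 and 39.8 FPKM at 2C, against 5.19 and 4.68 FPKM in MII 1 and MII 2 (difference 2.29 ± 0.29 SE, adjusted p = 0.003). The 2C values spread widely, and the choice of these genes fixed that the stages stayed apart.

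The other 6 of the 15 higher genes were NDUFS7 and NDUFA8, both subunits of respiratory complex I, WDR41, a partner of C9ORF72 in autophagy, SH3YL1, DYDC1 and PRELID2. Their differences ran from 2.27 for NDUFA8 to 2.33 for NDUFS7. NDUFA8 stood at 206, 184, 222 and 207 FPKM at 2C, against 33.4 and 51.4 FPKM in MII 1 and MII 2. NDUFS7 was rarer, with 15.2, 15.9, 14.8 and 14.4 FPKM at 2C, against 1.35 and 3.36 FPKM in MII 1 and MII 2. That the stages did not overlap was fixed by the choice of these genes.

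Of the 14 lower genes, ZFP36L1 fell furthest. It encodes a zinc finger protein that binds AU-rich elements in 3′ untranslated regions and recruits deadenylases to the bound messenger RNA. Its level was 19.2, 14.1, 13.6 and 13.1 FPKM at 2C, against 234 and 118 FPKM in MII 1 and MII 2 (difference -3.40 ± 0.28 SE, adjusted p = 0.0012). All 2C values were far below both oocyte values, although MII 1 and MII 2 themselves differed. SP2, a transcription factor of the Sp family, had 0.56, 0.787, 0.895 and 0.837 FPKM at 2C, against 10.9 and 14.4 FPKM in MII 1 and MII 2 (difference -2.94 ± 0.18 SE, adjusted p = 0.00075). SPDYC, a Speedy/RINGO protein that activates cyclin-dependent kinases, had 0.634, 0.302, 0.386 and 0.265 FPKM at 2C, against 8.65 and 9.7 FPKM in MII 1 and MII 2 (difference -2.87 ± 0.18 SE, adjusted p = 0.00075). Both genes were below 1 FPKM in every 2C library and well above it in both oocyte libraries. TCF7L2, a transcription factor of Wnt signalling, stood at 1.04, 1.43, 1.07 and 1.03 FPKM at 2C, against 13.4 and 8.87 FPKM in MII 1 and MII 2 (difference -2.48 ± 0.20 SE, adjusted p = 0.0012).

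FMN2, a formin that nucleates the actin needed for spindle positioning in mouse oocytes, had 2.04, 4.1, 2.79 and 3.08 FPKM at 2C, against 17.3 and 21.2 FPKM in MII 1 and MII 2 (difference -2.36 ± 0.23 SE, adjusted p = 0.0017). SAXO1, a stabilizer of axonemal microtubules, was abundant, with 44.6, 46.3, 37.9 and 49.8 FPKM at 2C, against 249 and 207 FPKM in MII 1 and MII 2 (difference -2.33 ± 0.17 SE, adjusted p = 0.0012). TIMM9, an import chaperone of the mitochondrial intermembrane space, stood at 246, 207, 178 and 178 FPKM at 2C, against 1218 and 789.5 FPKM in MII 1 and MII 2 (difference -2.29 ± 0.23 SE, adjusted p = 0.0017). The 2C values of SAXO1 and TIMM9 lay close together, while those of FMN2 ran from 2.04 to 4.1 FPKM. All 3 genes lay below both oocyte libraries in every 2C library, as the choice fixed. The other genes of this set, NDUFC1, DRAP1, NAF1, POM121C, EFCAB10, HOXD1 and CHAMP1, fell by 2.04 (CHAMP1) to 2.34 (DRAP1) on the log2 scale. All 29 genes were also called under the 3 other scales. The choice took only genes without overlap of the stages, and first those still called without each of the 6 libraries, so both properties were fixed by it. In the fit of all 26 libraries, the calls of DRAP1 (difference -2.72, adjusted p = 0.11), NDUFC1 (adjusted p = 0.088) and EFCAB10 (adjusted p = 0.22) ended without MII 1, and DRAP1 (adjusted p = 0.13) ended without MII 2.

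**Figure D2:**
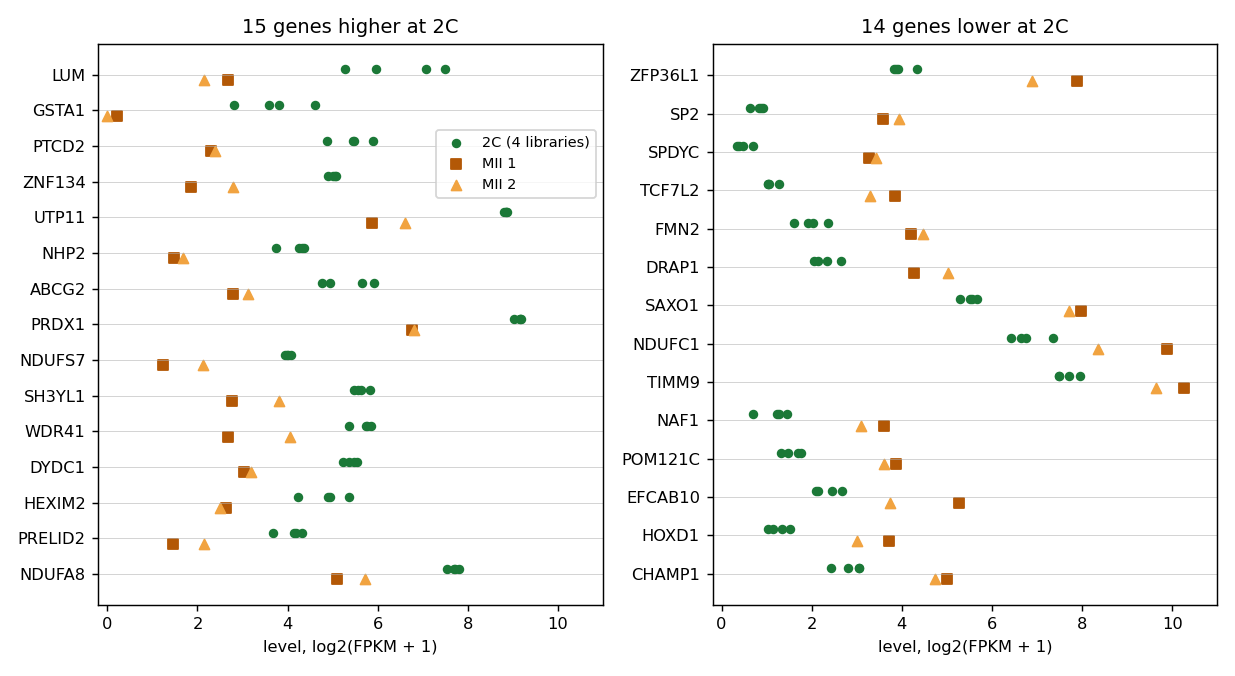
Level in log2(FPKM + 1) of the 15 higher genes (left) and the 14 lower genes (right) in each library, with green circles for the 4 2C libraries, brown squares for MII 1 and orange triangles for MII 2. The circles of each gene lie on 1 side of the square and the triangle, as the choice of these genes fixed, and the distance between square and triangle differs from gene to gene.

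Genes that define the oocyte were grouped by role, and their shares stand beside the 8.59% of all tested genes that rose and the 3.50% that fell. Of 7 tested genes for zona pellucida proteins and oocyte growth factors 1 rose (14.3%), of 11 oocyte transcription and nuclear factors 1 rose (9.1%) and 3 fell (27.3%), and of 15 genes of the subcortical maternal complex and other maternal-effect genes 2 fell (13.3%). ZP2, which encodes a sperm-binding coat protein, had 978, 1157, 1115 and 1232 FPKM at 2C, against 1315 and 1379 FPKM in MII 1 and MII 2 (difference -0.27, adjusted p = 0.23). GDF9, an oocyte growth factor, had 399, 637, 694 and 779 FPKM at 2C, against 515 and 489 FPKM in MII 1 and MII 2 (difference 0.28, adjusted p = 0.44). Its 2C values lay on both sides of the oocyte values. BMP15, the partner of GDF9, rose: it stood at 199, 257, 272 and 309.7 FPKM at 2C, against 62 and 113 FPKM in MII 1 and MII 2 (difference 1.60 ± 0.27 SE, adjusted p = 0.0071), with no overlap. FIGLA, the transcription factor that drives zona pellucida genes, fell to 6.66, 5.75, 5.79 and 4.94 FPKM at 2C, against 22.9 and 17.6 FPKM in MII 1 and MII 2 (difference -1.64 ± 0.19 SE, adjusted p = 0.0024).

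In the maternal-effect list the median difference was -0.42, with -0.71 against MII 1 and -0.07 against MII 2. OOEP, a subunit of the subcortical complex, had 1458, 1106, 1199 and 1134 FPKM at 2C, against 2598 and 1944 FPKM in MII 1 and MII 2. Its values did not overlap, but its difference of -0.89 was under 1 and it was not called (adjusted p = 0.016). NLRP5, the complex's best known member, was near 2 FPKM throughout, with 1.48, 2.49, 1.69 and 1.94 FPKM at 2C, against 2.09 and 1.21 FPKM in MII 1 and MII 2 (adjusted p = 0.65). The members that fell were UHRF1 and TRIM28. UHRF1, which guides the maintenance methyltransferase to DNA, had 48.5, 48.5, 48.1 and 46.7 FPKM at 2C, against 160.5 and 106 FPKM in MII 1 and MII 2 (difference -1.43 ± 0.19 SE, adjusted p = 0.0039). TRIM28, the corepressor of KRAB zinc finger proteins, had 5.89, 6.77, 5.06 and 6.29 FPKM at 2C, against 21.2 and 15.7 FPKM in MII 1 and MII 2 (difference -1.46 ± 0.19 SE, adjusted p = 0.0036). For both, the stages were apart and MII 1 was the highest library. When all 26 libraries were fitted, the calls of BMP15 (adjusted p = 0.34), FIGLA (adjusted p = 0.14) and UHRF1 (adjusted p = 0.13) ended without MII 1.

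Factors that remove or lengthen poly(A) tails were next described. Of 22 deadenylases and adaptors 1 rose and 1 fell (4.5% each), of 24 decapping, decay and uridylation factors 1 rose and 1 fell (4.2% each), and of 16 RNA-binding decay factors ZFP36L1 alone was called (6.2%), beside 8.59% higher and 3.50% lower among all tested genes. BTG4, the adaptor that brings the CCR4-NOT deadenylase to maternal messenger RNA in the mouse, was among the most abundant transcripts, with 1950.4, 2192, 2587 and 2257 FPKM at 2C, against 3054 and 2791 FPKM in MII 1 and MII 2. Every 2C value was lower, but BTG4 was not called (difference -0.39, adjusted p = 0.12). The catalytic subunit gene CNOT6L had 75, 70.6, 72.4 and 70.7 FPKM at 2C, against 78.3 and 80.9 FPKM in MII 1 and MII 2 (difference -0.14, adjusted p = 0.47). CNOT1, the scaffold of the CCR4-NOT complex, rose to 15.6, 19, 19 and 22.3 FPKM at 2C, against 4.6 and 7.38 FPKM in MII 1 and MII 2 (difference 1.53 ± 0.22 SE, adjusted p = 0.0047), with no overlap. TOB2, another CCR4-NOT adaptor, fell to 3.62, 1.52, 1.94 and 1.69 FPKM at 2C, against 6.51 and 5.59 FPKM in MII 1 and MII 2 (difference -1.18 ± 0.26 SE, adjusted p = 0.017). That call ended with no filter on low values (adjusted p = 0.061) and without MII 1 (adjusted p = 0.11). ZFP36L2, the relative of ZFP36L1 that marks maternal messenger RNA for decay in the mouse, was rare, with 2.48, 1.1, 0.106 and 0.178 FPKM at 2C, against 0.473 and 0.146 FPKM in MII 1 and MII 2 (adjusted p = 0.48).

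Of 37 genes for cytoplasmic polyadenylation, storage and translational control none rose and 3 fell (8.1%), beside 8.59% higher and 3.50% lower among all tested genes. The list's median was -0.42 relative to all tested genes. CPEB1, which binds the cytoplasmic polyadenylation element, had 72.1, 65.7, 64.3 and 79 FPKM at 2C, against 149 and 92.7 FPKM in MII 1 and MII 2. All 2C values were lower, with a difference under 1 (difference -0.74 ± 0.21 SE, adjusted p = 0.038, not called). The members that fell were EIF4G3, TENT5B and TENT4A, a scaffold of translation initiation and a pair of non-canonical poly(A) polymerases. EIF4G3 stood at 39.7, 27.4, 25.5 and 24.3 FPKM at 2C, against 106 and 54.8 FPKM in MII 1 and MII 2 (difference -1.38 ± 0.30 SE, adjusted p = 0.015), and its call ended with no filter on low values (adjusted p = 0.055) and without MII 1 (adjusted p = 0.094). TENT5B stood at 33.1, 26.5, 20.1 and 26 FPKM at 2C, against 70.8 and 48 FPKM in MII 1 and MII 2 (difference -1.13 ± 0.24 SE, adjusted p = 0.014), and its call ended on the TPM scale (difference -0.98) and without MII 1 (adjusted p = 0.092). For both, MII 1 was the highest library by far. TENT4A had a difference of -1.03, and its call ended on the TPM scale (difference -0.91), with no filter on low values (adjusted p = 0.076), without MII 1 (difference -0.62, adjusted p = 0.15) and without 2C 2, 2C 3 or 2C 4 (adjusted p = 0.063, 0.066 and 0.057). Among 15 nuclear cleavage and polyadenylation factors 1 rose (6.7%, beside 8.59% of all tested genes) and none fell. It was CPSF2, with 42.1, 46.2, 54 and 41.5 FPKM at 2C, against 17.5 and 18.8 FPKM in MII 1 and MII 2 (difference 1.29 ± 0.17 SE, adjusted p = 0.0037). With all 26 libraries in the fit the calls of CPSF2 (adjusted p = 0.17), TOB2 (adjusted p = 0.11), EIF4G3 (adjusted p = 0.067), TENT5B (adjusted p = 0.29) and TENT4A (adjusted p = 0.53) ended without MII 1.

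Cell cycle genes were grouped by the phase in which they act. Of all tested genes, 8.59% rose and 3.50% fell. Of 53 genes for meiotic arrest, exit and M-phase control 3 rose (5.7%) and 7 fell (13.2%), and the list's median was -0.30 relative to all tested genes. Of 52 genes for G1/S cyclins and DNA replication 6 rose (11.5%) and none fell, with a median within 0.01 of all tested genes. UBE2C, the ubiquitin-conjugating enzyme that works with the anaphase-promoting complex, stood at 80.2, 67.5, 92.8 and 70.2 FPKM at 2C, against 398 and 249.9 FPKM in MII 1 and MII 2 (difference -2.02 ± 0.23 SE, adjusted p = 0.0024). WEE2, the kinase that inhibits CDK1 in oocytes, stood at 291, 315, 344 and 239 FPKM at 2C, against 741 and 597 FPKM in MII 1 and MII 2 (difference -1.17 ± 0.20 SE, adjusted p = 0.0067). Both genes were lower in every 2C library than in either oocyte library, and the call of WEE2 ended with quantile normalization (difference -0.95). MOS, the kinase that holds the oocyte at metaphase, was near the limit: it had 249, 352, 314 and 368 FPKM at 2C, against 767 and 531 FPKM in MII 1 and MII 2 (difference -1.01 ± 0.22 SE, adjusted p = 0.017). Its stages did not overlap, and its call ended with all 26 libraries in the fit (adjusted p = 0.12), on the TPM scale (difference -0.84), with quantile normalization (difference -0.80), with no filter on low values (adjusted p = 0.059), without MII 1 (adjusted p = 0.1) and without 2C 1 (difference -0.89).

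ARPP19, whose phosphorylated form inhibits the phosphatase that opposes CDK1, rose to 34.7, 35.7, 42.6 and 31.1 FPKM at 2C, against 10.3 and 15.2 FPKM in MII 1 and MII 2 (difference 1.44 ± 0.21 SE, adjusted p = 0.0047). CDK1 itself was low and rose to 6.3, 4.81, 8.78 and 6.28 FPKM at 2C, against 1.99 and 1.81 FPKM in MII 1 and MII 2 (difference 1.35 ± 0.22 SE, adjusted p = 0.0066). It was chosen after its values were seen. The B-type cyclin CCNB1 had 577, 489.6, 501 and 493 FPKM at 2C, against 776 and 660.5 FPKM in MII 1 and MII 2, lower in every 2C library but not called (difference -0.48, adjusted p = 0.057). CCNA2, an A-type cyclin, had 66.6, 38.9, 39 and 37.3 FPKM at 2C, against 50.2 and 52.9 FPKM in MII 1 and MII 2 (adjusted p = 0.52), so 2C 1 was above both oocyte libraries and the other 2C libraries were below both. Among replication genes, RFC3, a subunit of the clamp loader, stood at 122, 99.3, 111 and 113 FPKM at 2C, against 21.5 and 28.1 FPKM in MII 1 and MII 2 (difference 2.13 ± 0.17 SE, adjusted p = 0.0012). ORC4, a subunit of the origin recognition complex, had 26.9, 24.8, 32.1 and 27.7 FPKM at 2C, against 6.56 and 9.51 FPKM in MII 1 and MII 2 (difference 1.69 ± 0.19 SE, adjusted p = 0.0025). The 2C values of both genes were far above the oocyte values. With median-ratio scaling 2 genes of the meiotic list rose and 13 fell, and 3 of the replication list rose and 2 fell. Without MII 1, 2 of the meiotic list rose and 3 fell and 2 of the replication list rose. Without MII 2, 8 of the meiotic list rose and 12 fell and 8 of the replication list rose and 2 fell. Of 43 spindle and centrosome genes 3 rose (7.0%) and 1 fell (2.3%), beside 8.59% and 3.50% of all tested genes. Among those that rose was RACGAP1, a regulator of cytokinesis, with 30.1, 32.1, 33.6 and 37.7 FPKM at 2C, against 11.1 and 15.5 FPKM in MII 1 and MII 2 (difference 1.27 ± 0.19 SE, adjusted p = 0.005). Fitted over all 26 libraries, the calls of WEE2 (adjusted p = 0.17), ARPP19 (adjusted p = 0.33) and MOS (adjusted p = 0.56) ended without MII 1, and ARPP19 (adjusted p = 0.05) and MOS (adjusted p = 0.13) ended without MII 2.

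Genes for the assembly of ribosomes and for their proteins were described separately. Their shares stand beside 8.59% higher and 3.50% lower among all tested genes. Of 81 genes for ribosome biogenesis and RNA polymerase I 9 rose (11.1%) and 1 fell (1.2%), with a median of 0.13 relative to all tested genes. Besides UTP11 and NHP2, the helicase DDX47 stood at 15.9, 14, 16.7 and 15.3 FPKM at 2C, against 2.76 and 4.46 FPKM in MII 1 and MII 2 (difference 1.86 ± 0.20 SE, adjusted p = 0.002). POLR1E, a subunit of RNA polymerase I, had 29.8, 20.9, 26 and 25.9 FPKM at 2C, against 6.78 and 7.69 FPKM in MII 1 and MII 2 (difference 1.69 ± 0.18 SE, adjusted p = 0.0022). The stages did not overlap for either gene. Without MII 1, 6 of the biogenesis list rose, and without MII 2, 15 rose and 4 fell.

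Of 76 cytosolic ribosomal protein genes 1 rose (1.3%) and 9 fell (11.8%), with a median difference of -0.94. The median was -1.81 against MII 1 and -0.24 against MII 2. Without MII 1 none of them fell, and without MII 2, 42 fell, while the fit over all 26 libraries called 21 lower. RPS24, of the small subunit, had 59.1, 19.2, 17.7 and 10.1 FPKM at 2C, against 438 and 58.5 FPKM in MII 1 and MII 2 (difference -2.85 ± 0.84 SE, adjusted p = 0.039). Here MII 2 was at the level of 2C 1, and the groups overlapped. The call ended with no filter on low values (adjusted p = 0.13), without MII 1 (adjusted p = 0.29), without 2C 2 (adjusted p = 0.079), without 2C 3 (adjusted p = 0.085) and without 2C 4 (adjusted p = 0.073). RPL37, of the large subunit, had 114, 69.2, 47.5 and 46.6 FPKM at 2C, against 743 and 158 FPKM in MII 1 and MII 2 (difference -2.39 ± 0.59 SE, adjusted p = 0.023), and its call ended with no filter on low values (adjusted p = 0.091), without MII 1 (adjusted p = 0.14), without 2C 2 (adjusted p = 0.05) and without 2C 3 (adjusted p = 0.059). The single gene that rose was RPS6, a small subunit protein that is a target of growth signalling, with 201, 169, 175 and 154 FPKM at 2C, against 79.5 and 59.2 FPKM in MII 1 and MII 2 (difference 1.33 ± 0.19 SE, adjusted p = 0.0046). It was chosen after its values were seen, and its 2C values were all above both oocyte libraries. With all 26 libraries in the fit, the calls of RPS24 (adjusted p = 0.38) and RPL37 (adjusted p = 0.25) also ended without MII 1. Ribosomal protein genes have many near-identical copies, and how the counting shared reads among them is not given in the sources used here, so single members are uncertain.

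Translation factors and splicing factors were called in both directions, beside 8.59% higher and 3.50% lower among all tested genes. Of 44 translation initiation and elongation factors 5 rose (11.4%) and 3 fell (6.8%). EIF3M, a subunit of the initiation factor that binds the small ribosomal subunit, stood at 563, 694, 791 and 673 FPKM at 2C, against 155 and 206 FPKM in MII 1 and MII 2 (difference 1.91 ± 0.20 SE, adjusted p = 0.0019). EIF1, which helps to select the start codon, stood at 212, 221, 189.7 and 229 FPKM at 2C, against 688 and 423 FPKM in MII 1 and MII 2 (difference -1.34 ± 0.21 SE, adjusted p = 0.0061). The first was higher and the second lower in every 2C library, and the call of EIF1 ended without MII 1 (difference -0.99). Of 78 core spliceosome genes 7 rose (9.0%) and 12 fell (15.4%). None of the 12 lower calls held with each of the 6 libraries left out in turn. With MII 1 left out, the difference was -1.39 for U2AF1, -1.51 for LSM5 and -1.09 for SNRPD3. With all 6 libraries these differences were -2.60, -2.07 and -1.97. SF3B4, a subunit of the branch point complex, had 18.1, 46.3, 28 and 46.5 FPKM at 2C, against 139 and 149 FPKM in MII 1 and MII 2 (difference -2.12 ± 0.36 SE, adjusted p = 0.0075). Its oocyte libraries were alike and its 2C libraries lower, and without MII 1 its difference was -2.17 with an adjusted p of 0.051, and it was not called. Of 59 SR proteins, hnRNPs and other splicing regulators 4 rose (6.8%) and 3 fell (5.1%), and none of them rose with median-ratio scaling or quantile normalization. The poly(C)-binding proteins PCBP1 and PCBP2 fell. PCBP1 stood at 429, 268, 275 and 269.6 FPKM at 2C, against 1388 and 888 FPKM in MII 1 and MII 2 (difference -1.87 ± 0.26 SE, adjusted p = 0.0047). PCBP2 stood at 58.2, 59.1, 53.3 and 48.6 FPKM at 2C, against 203 and 152 FPKM in MII 1 and MII 2 (difference -1.67 ± 0.18 SE, adjusted p = 0.0022). For both genes every 2C library was below both oocyte libraries, with 2C 1 the highest 2C library for PCBP1.

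Mitochondrial genes were grouped by their place in the organelle and set beside all tested genes, of which 8.59% rose and 3.50% fell. Of 70 mitochondrial ribosomal protein genes 15 rose (21.4%) and 1 fell (1.4%), with a median of 0.20 relative to all tested genes and of 0.48 against MII 1 and 0.41 against MII 2. MRPL48 had 6.87, 13.1, 12.7 and 9.03 FPKM at 2C, against 1.48 and 1.28 FPKM in MII 1 and MII 2 (difference 2.22 ± 0.26 SE, adjusted p = 0.0026). MRPL17 had 13.7, 8.49, 9.69 and 7.18 FPKM at 2C, against 2.25 and 1.9 FPKM in MII 1 and MII 2 (difference 1.78 ± 0.25 SE, adjusted p = 0.0045). Both encode large subunit proteins and were lowest in both oocyte libraries, and the call of MRPL48 ended with all 26 libraries in the fit and MII 1 left out (difference 2.28, adjusted p = 0.081). The number that rose was 6 with median-ratio scaling or quantile normalization (4 and 3 fell), 9 without MII 1, and 3 with all 26 libraries in the fit and MII 1 left out. With MII 2 left out of that fit 5 rose and 4 fell, and with MII 2 left out of the fit of the 6 libraries 14 rose and 5 fell.

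Of 59 nuclear-encoded subunits of the respiratory chain 7 rose (11.9%) and 5 fell (8.5%), so NDUFS7 and NDUFA8, which rose, stood beside NDUFC1 and NDUFA6, which fell in the same complex. NDUFC1 had 163, 98.3, 106 and 85.2 FPKM at 2C, against 938 and 325 FPKM in MII 1 and MII 2 (difference -2.32 ± 0.42 SE, adjusted p = 0.0086). NDUFA6 had 230.3, 133, 104 and 126 FPKM at 2C, against 1085 and 418 FPKM in MII 1 and MII 2 (difference -2.25 ± 0.42 SE, adjusted p = 0.0095), and its call ended without MII 1 (adjusted p = 0.063, and 0.17 with all 26 libraries in the fit). In both, the 2 oocyte libraries differed widely and both exceeded every 2C library. Without MII 1, 1 subunit fell, and without MII 2, 8 fell. Of 12 tested genes encoded in the mitochondrial genome none rose and 3 fell (25.0%, beside 3.50% of all tested genes). The 3 were ND3, COX3 and ND2, and the list's median was -1.40 against MII 1 and -0.30 against MII 2. ND3, a complex I subunit, had 60.3, 43.8, 34.7 and 52.3 FPKM at 2C, against 487 and 122 FPKM in MII 1 and MII 2 (difference -2.35 ± 0.49 SE, adjusted p = 0.013), and its call ended with no filter on low values (adjusted p = 0.057) and with all 26 libraries in the fit and MII 1 left out (adjusted p = 0.15). COX3 and ND2 were no longer called with quantile normalization (adjusted p = 0.077 and 0.09), with no filter (0.12 and 0.13), without MII 1 (0.25 and 0.27), without 2C 2 (0.069 and 0.075), without 2C 3 (0.08 and 0.077) or without 2C 4 (0.073 and 0.071), and ND2 also lost its call on the TPM scale (difference -0.92).

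Genes for protein turnover and redox defence were compared with the 8.59% of all tested genes that rose and the 3.50% that fell. Of 39 proteasome subunits 7 rose (17.9%) and 1 fell (2.6%), with a median of 0.22 relative to all tested genes, and with median-ratio scaling 5 rose and 3 fell. PSMB5, which carries the chymotrypsin-like site of the core particle, stood at 80.2, 136, 135 and 136 FPKM at 2C, against 21.8 and 36.7 FPKM in MII 1 and MII 2 (difference 2.03 ± 0.29 SE, adjusted p = 0.0047). 2C 1 was the lowest 2C library and still above both oocyte libraries, and the call ended with all 26 libraries in the fit and MII 1 left out (difference 1.67, adjusted p = 0.07). Without MII 1, 4 subunits rose, without MII 2, 10 rose and 4 fell, and 1 rose with all 26 libraries in the fit and MII 1 left out. Of 24 glutathione and antioxidant enzymes 4 rose (16.7%) and none fell, namely GSTA1, PRDX1, PRDX6 and GPX4, and each of these calls held without each of the 6 libraries. PRDX6 had 554, 799, 882 and 802 FPKM at 2C, against 196 and 267 FPKM in MII 1 and MII 2 (difference 1.71 ± 0.23 SE, adjusted p = 0.0042). GPX4, which reduces lipid peroxides, had 55.3, 53.3, 48.9 and 49.6 FPKM at 2C, against 17.2 and 18 FPKM in MII 1 and MII 2 (difference 1.504 ± 0.15 SE, adjusted p = 0.0017), with both stages tight and well apart. Genes of this list fell under some alternatives, with the largest number, 4, without MII 2, and 2 with median-ratio scaling or without 2C 1. Of 39 genes for translocation into the endoplasmic reticulum 4 rose and 1 fell, SEC61G, a subunit of the translocation channel, with 271, 142, 124 and 110.2 FPKM at 2C, against 1904 and 521 FPKM in MII 1 and MII 2 (difference -2.71 ± 0.52 SE, adjusted p = 0.011). Its call ended with no filter on low values (adjusted p = 0.051) and without MII 1 (adjusted p = 0.064, and 0.12 with all 26 libraries in the fit).

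**Figure D3:**
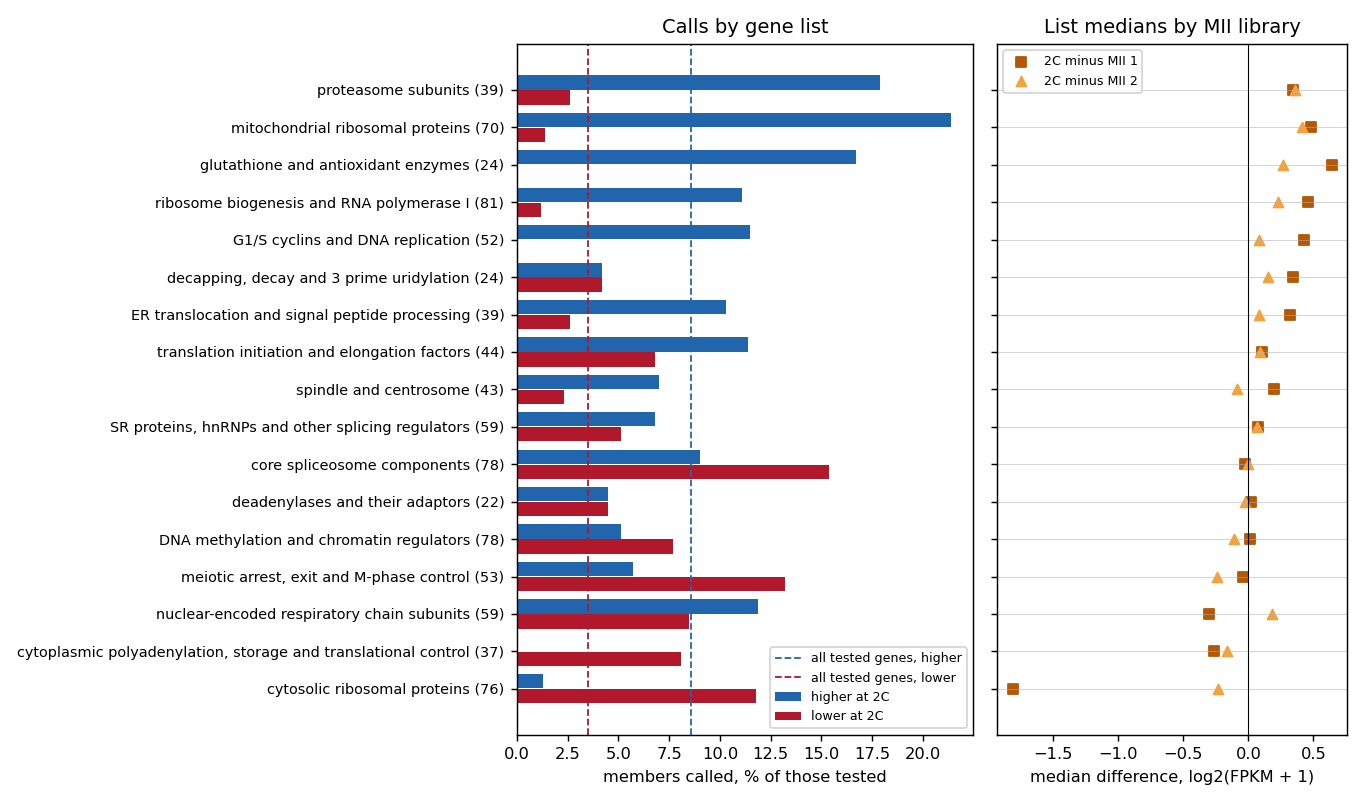
Left, share of the tested members of 17 gene lists with at least 20 tested members that were higher (blue) or lower (red) at 2C, with dashed lines at 8.59% and 3.50% for all tested genes. Right, median difference of each list against MII 1 (squares) and MII 2 (triangles); the cytosolic ribosomal proteins stand at -1.81 and -0.24.

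Chromatin regulators and genes linked to activation of the embryonic genome were compared last, again beside 8.59% higher and 3.50% lower among all tested genes. Of 78 genes for DNA methylation and chromatin regulators 4 rose (5.1%) and 6 fell (7.7%), with a median of -0.28 relative to all tested genes. ARID1A, the DNA-binding subunit of a SWI/SNF remodelling complex, had 3.36, 2.55, 2.47 and 2.5 FPKM at 2C, against 15.8 and 7.34 FPKM in MII 1 and MII 2 (difference -1.68 ± 0.28 SE, adjusted p = 0.0067). JARID2, a partner of Polycomb repressive complex 2, had 53.8, 44.2, 40.8 and 40.3 FPKM at 2C, against 215 and 90.7 FPKM in MII 1 and MII 2 (difference -1.63 ± 0.32 SE, adjusted p = 0.011). MII 1 was the highest and MII 2 the second highest library for both. DNMT1, the maintenance DNA methyltransferase, had 520.5, 562, 568 and 559 FPKM at 2C, against 927 and 759 FPKM in MII 1 and MII 2, lower in every 2C library with a difference of -0.60 and not called (adjusted p = 0.026). The genes of this list that rose were the Polycomb subunits EED and SUZ12, the histone methyltransferase SUV39H2 and the histone chaperone ASF1A. None of the list rose without MII 1, where 5 fell, and 8 rose and 8 fell without MII 2. Of 11 tested genes known from genome activation in other species, none rose and 1 fell (9.1%). It was KLF4, a pluripotency factor, with 1.57, 1.38, 1.32 and 1.81 FPKM at 2C, against 3.91 and 5.03 FPKM in MII 1 and MII 2 (difference -1.11 ± 0.18 SE, adjusted p = 0.0062). Its call ended without MII 2 (difference -0.97). ZSCAN4 and KLF17 were listed at 0 in all 6 libraries. In the fit of all 26 libraries, the call of ARID1A (adjusted p = 0.056) ended without MII 1, and that of KLF4 (difference -0.97) ended without MII 2.

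Some genes crossed the level of 1 FPKM between the stages. In all, 297 genes were below it in both MII libraries and at or above it in every 2C library, of which 95 were called higher, and 87 genes went the other way, of which 24 were called lower. Both sets were chosen by these levels, and each passed the filter only through the stage in which it is high. Their calls are therefore no separate support for a change. Of all tested genes, 8.59% were called higher and 3.50% lower. Crossing this level does not mean that a gene was absent before or after. Among the most abundant of the genes newly at 1 FPKM or more, chosen after their values were seen, was SPARC, a matrix protein. It had 16.1, 9.1, 4.34 and 3.34 FPKM at 2C, against 0.681 and 0.759 FPKM in MII 1 and MII 2 (difference 2.21 ± 0.50 SE, adjusted p = 0.017). IGFBP5, which binds insulin-like growth factors, had 17.1, 12.2, 4.65 and 1.93 FPKM at 2C, against 0.508 and 0.488 FPKM in MII 1 and MII 2 (difference 2.41 ± 0.65 SE, adjusted p = 0.03). As with LUM, 2C 1 and 2C 2 were the highest libraries. The call of SPARC ended with no filter on low values (adjusted p = 0.072) and without MII 1 (adjusted p = 0.11), and that of IGFBP5 ended with all 26 libraries in the fit (adjusted p = 0.057), with no filter on low values (adjusted p = 0.11), without MII 1 (adjusted p = 0.15), without MII 2 (adjusted p = 0.088), without 2C 2 (adjusted p = 0.066) and without 2C 3 (adjusted p = 0.054). SLC29A1, a nucleoside transporter, had the other order at 2C, with 3.97, 5.4, 6.82 and 6.71 FPKM, against 0.204 and 0.84 FPKM in MII 1 and MII 2 (difference 2.15 ± 0.26 SE, adjusted p = 0.0027). Of the genes that went below 1 FPKM, FAM222B had 0.304, 0.192, 0.218 and 0.252 FPKM at 2C, against 4.72 and 4.41 FPKM in MII 1 and MII 2 (difference -2.17 ± 0.16 SE, adjusted p = 0.0012), and RAD54L, a recombination protein, had 0.538, 0.734, 0.428 and 0.786 FPKM at 2C, against 3.73 and 3.6 FPKM in MII 1 and MII 2 (difference -1.53 ± 0.17 SE, adjusted p = 0.0025). When all 26 libraries were fitted, the calls of SPARC (adjusted p = 0.1), IGFBP5 (adjusted p = 0.3) and RAD54L (adjusted p = 0.052) ended without MII 1, and IGFBP5 (adjusted p = 0.15) ended without MII 2.

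The summed markers of cells that surround the oocyte were highest in 2C 1 and 2C 2. The summed level of 31 cumulus and granulosa cell markers was 382.0, 359.1, 162.1 and 123.1 FPKM in the 4 2C libraries, against 97.6 FPKM in MII 1 and 105.4 FPKM in MII 2. LUM alone made up 133.5, 179.9, 61.1 and 37.4 FPKM of the 2C sums, against 5.37 and 3.41 FPKM in MII 1 and MII 2. Much of the excess of 2C 3 and 2C 4 over MII is thus this gene. Of the 31 markers 14 were tested, LUM alone was called, and 11 were below 1 FPKM in all 6 libraries. VIM, an intermediate filament protein, had 52.6, 31.4, 4.4 and 6.69 FPKM at 2C, against 4.07 and 2.65 FPKM in MII 1 and MII 2 (adjusted p = 0.13, not called). TNFAIP6, a protein of the expanded cumulus matrix, had 49.4, 41, 17.3 and 1.28 FPKM at 2C, against 5.11 and 14.1 FPKM in MII 1 and MII 2 (adjusted p = 0.59, not called). For both genes 2C 1 and 2C 2 were the highest libraries, and the TNFAIP6 values of the stages overlapped. In MII 1 and MII 2 the levels of LUM, VIM and TNFAIP6 were small beside the summed level. Most of the MII sums thus came from markers not named here, and these 3 genes do not stand for the list. The summed level of 15 blood cell markers was 68.1, 167.8, 47.9 and 45.9 FPKM at 2C, against 6.1 FPKM in MII 1 and 11.7 FPKM in MII 2, of which SRGN, a proteoglycan of secretory granules, made up 61.5, 140.0, 40.04 and 38.6 FPKM at 2C, against 4.4 and 8.13 FPKM in MII 1 and MII 2 (difference 3.13 ± 0.50 SE, adjusted p = 0.0061). The call of SRGN ended with all 26 libraries in the fit (adjusted p = 0.074) and without MII 1 (adjusted p = 0.055). With all 26 libraries in the fit it ended without MII 1 (adjusted p = 0.41) and without MII 2 (adjusted p = 0.13). Of the 15 blood cell markers, 11 were below 1 FPKM in all 6 libraries, so the sums at 2C are mostly SRGN and not a set of blood genes. The part of other cells in the 2C values was not tested. Without 2C 1 and 2C 2 together, 718 genes were higher and 277 lower. Both 2C 1 and 2C 2 exceeded 2C 3 and 2C 4 in 22.22% of the 297 genes newly at 1 FPKM or more, against 14.49% of the 835 higher genes and 24.66% of all tested genes. Calling favours genes with a small spread among the 2C libraries, so these shares cannot show the part of other cells.

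The lengths of the genes, recovered with the reads, differed between the called sets. The median length was 2070 bases for the higher genes and 1616 bases for the lower genes, against 2842 bases for all tested genes. Lengths of 1000 bases or less made up 16.29% of the higher and 35.59% of the lower genes, against 13.09% of all tested genes. Among the 319 genes of at most 500 bases, 6.27% were higher and 13.8% lower, and the median difference was -0.50 against MII 1 and -0.02 against MII 2. In the longer classes the median against MII 1 ran from 0.06 to 0.38 and that against MII 2 from 0.11 to 0.19. The median length was 633 bases for the cytosolic ribosomal protein genes and 675 bases for the nuclear-encoded respiratory subunits. The part of transcript length in the calls was not tested.

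**Figure D4:**
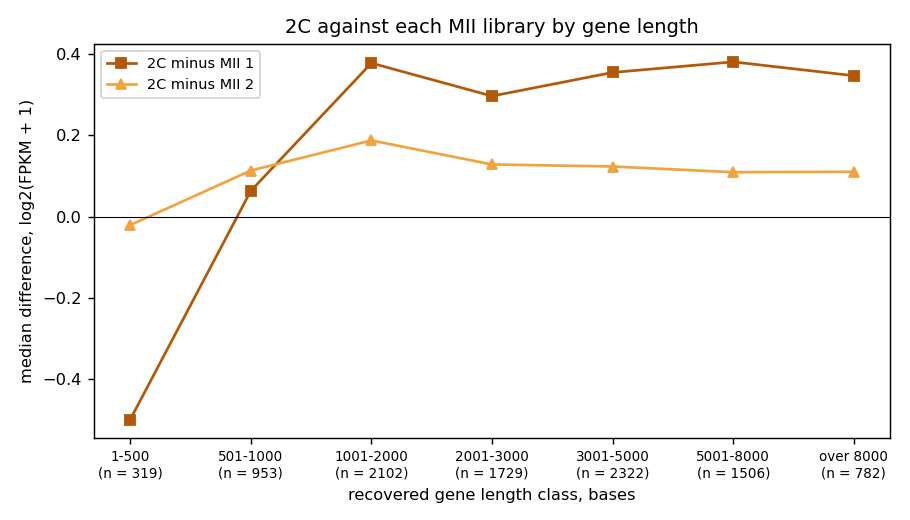
Median difference between 2C and MII 1 (squares) or MII 2 (triangles) on the log2(FPKM + 1) scale, for tested genes in 7 classes of recovered length, with the number of genes under each class. The shortest class lies at -0.50 against MII 1 and at -0.02 against MII 2.

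The called sets were followed through the later stages as a description, since their MII and 2C levels had chosen them. Over the 835 higher genes, the median log2(FPKM + 1) was 2.42 and 2.79 in MII 1 and MII 2, 3.94 to 4.03 at 2C, 3.79 to 4.02 at 4C, 3.81 to 3.98 at 8C and 3.03 to 3.38 in expanded blastocysts (ExpB). Over the 340 lower genes it was 4.66 and 4.15 in MII 1 and MII 2, 2.77 to 3.09 at 2C, 2.69 to 2.87 at 4C, 3.70 to 3.80 in early blastocysts (EarlyB) and 3.09 to 3.52 in ExpB. The 2C levels of both sets lay close to the 4C levels. Single genes took different paths: ZFP36L1 averaged 22.1 FPKM at 4C and 3.51 FPKM in EarlyB, UHRF1 43.4 and 5.15 FPKM, PRDX1 706 and 419 FPKM, and UTP11 542 and 239 FPKM.

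**Figure D5:**
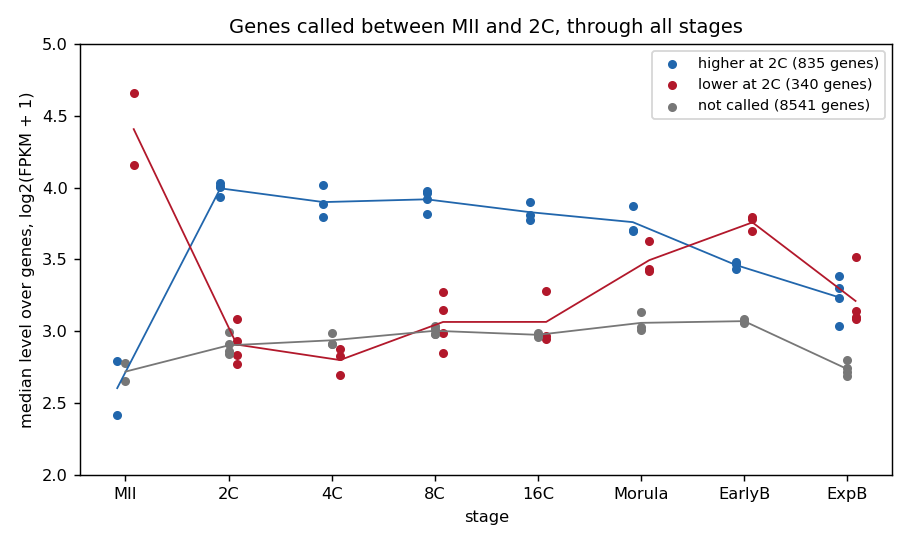
Median level over genes in log2(FPKM + 1) in each of the 26 libraries, in order of stage, for the genes higher at 2C (blue), lower at 2C (red) and not called (grey), with lines through the stage means. The blue and red sets trade places between MII and 2C, as their choice fixes, and the red set lies above the blue set in EarlyB.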

How the data were processed

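The authors deposited FPKM for 30186 genes in a single table with 1 column per library. The submitters' processing notes name featureCounts 2.0.1, HISAT2 2.1.0, fastp 0.23.4 and SAMtools 1.9 but not what each did. As for genome build, annotation, strand setting and reads that match several genes, these were not given in the sources used here, so overlapping genes and near-identical copies are uncertain. Of the gene names, 25443 are symbols in a RefSeq gene table for sheep, and mitochondrial genes were named through its locus tags.

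The 4 2C and 2 MII libraries, as the sample titles group them, were fitted with limma 3.58.1 (lmFit, eBayes with an intensity trend, two-sided) in R 4.3.3 on log2(FPKM + 1), over the 9716 genes that reached 1 FPKM in 2 or more of them, with Benjamini-Hochberg adjustment over all of these (4 residual and 4.05 prior degrees of freedom). An exact permutation test of 4 libraries against 2 has 15 splits and cannot go below 0.0667. These differences rest on FPKM, with no count model. On simulated data the fit called 89% of 100 genes changed by 2 and 96% of 100 changed by 3 on the log2 scale, with 1 false call among the unchanged genes. The simulated noise was normal and independent, with the same spread in both stages for each gene and no shift of a whole library. It therefore does not measure false calls that come from differences such as those between MII 1 and MII 2.

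Reads were recovered because low FPKM values of small RNA genes lie on whole multiples of the value of 1 read, within 0.05 reads. Gene lengths were then searched that make every value whole. This gave lengths for 23569 of the 23577 genes detected in 3 or more libraries, of 609 small RNA genes 99.7% matched the RefSeq table, and on simulated data 97.6% of 500 lengths were found exactly. Without molecular identifiers, Smart-seq2 reads do not count separate molecules.

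The genes named are the 15 higher and 15 lower ones chosen as described above (1 of the lower ones is not reported here), up to 4 called members with the largest difference of each of 28 gene lists, a fixed set of oocyte, decay, cell cycle and activation genes, and the most abundant markers of other cells. The comparison, the named genes and the lists were chosen with earlier results of these data known. List members that the table lacks were not analysed here. Alternatives changed the libraries, the scale, the pseudocount, the filter, the variance trend, the threshold, a block for replicate number and the test (limma-voom on recovered reads).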

Additional observations from a re-analysis of the deposited data

Results flagged for a closer look

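In 11 of 136 named genes, 1 of the 4 2C libraries lay further from its neighbour than the 95% critical value of Dixon's test for 4 samples allows, on the log2(FPKM + 1) scale. Chance flags about 1 in 20 groups. In 8 of the 11 the library was 2C 1. It was the highest for PCBP1 (gap of 0.942 of the range), TENT4A (0.94), CCNA2 (0.927), ARID1A (0.903), U2AF1 (0.867), TACC3 (0.862) and CCNB1 (0.859), and the lowest for the proteasome gene PSMB5 (0.99). TCF7L2 was highest in 2C 2 (0.893), and PRDX1 was lowest in 2C 4 (0.854). HBB, a haemoglobin gene of red blood cells, stood at 0, 20.3, 0 and 0 FPKM at 2C, against 0.252 FPKM in MII 1 and 0 FPKM in MII 2, so that 2C 2 alone held it among the 2C libraries (1.0). Of the genes that fell, TENT4A, U2AF1 and TACC3 lost their call in limma's test without MII 1 (adjusted p = 0.15, 0.13 and 0.099), and TENT4A and U2AF1 also without 2C 2 (0.063 and 0.053) or 2C 3 (0.066 and 0.056).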

How the results depend on the processing

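Against 835 higher and 340 lower genes, the TPM scale gave 1605 and 311, median-ratio scaling 432 and 591, quantile normalization 457 and 512, a pseudocount of 0.1 gave 1364 and 455, no minimum difference 1950 and 777, and no filter on low values 581 and 164, with 20572 genes tested. Leaving out 1 library gave 402 to 1339 higher and 124 to 627 lower genes, both lowest without MII 1 and highest without MII 2, and 218 lower genes without 2C 3. With all 26 libraries in the fit, 231 genes were higher and 73 lower without MII 1, and 1084 and 575 without MII 2. The cause was not tested. The other settings stayed within 1.5 times: all 26 libraries (775 and 358), a minimum of 5 FPKM (684 and 267), no intensity trend (835 and 338), limma-voom (1221 and 483) and leaving out 2C 1 and 2C 2 together (718 and 277). The last 2, and the fits over 26 libraries that left out an MII library, were chosen after seeing the data.

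The replicate block gave 989 higher and 338 lower genes. The stages share only numbers 1 and 2, whose libraries' deviations from the stage means correlated at 0.462 and 0.171. Libraries with unlike numbers reached 0.21 (2C 3 with MII 2) and 0.301 (2C 4 with MII 2). With 2 MII libraries each value has the opposite sign for the other MII library, so these correlations cannot show a pairing. No label ties a number to an animal or a day, so the libraries were not treated as paired. Of 134 named genes tested, 107 were called and 42 of these kept their call under every alternative run. Calls ended most often with all 26 libraries in the fit and MII 1 left out (58 genes), without MII 1 (39) and with no filter (33). None of the 107 called genes was called in the opposite direction under an alternative. This does not cover the sign of differences in named genes that were not called. Genes per library numbered 13848 to 14328 at 2C, against 13456 to 13505 in MII, at 0.1 FPKM, and 5497 to 5780 against 5036 to 5292 at 5 FPKM. With 2 MII libraries, the number of oocyte libraries limits the precision.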

Other observations

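Long non-coding RNA genes and several gene families were chosen after their values were seen. Of 372 tested lncRNA genes 59 were higher (15.9%) and 9 lower (2.4%), against 8.59% and 3.50% of all tested genes. Of 128 tested genes named ZNF with a number, 12 were higher (9.4%) and none lower, with a median difference of 0.43. Their share called higher was near that of all tested genes, and other families had like shares: 9.0% of transmembrane protein genes (TMEM) were higher and 4.5% lower, 8.5% of solute carriers (SLC) were higher and 1.7% lower, and 7.5% of coiled-coil domain genes (CCDC) were higher and none lower. Of the 12 higher zinc finger genes, 5 were called also without each of the 6 libraries, a share near that of all higher genes (332 of 835). ZNF512 had 2.98, 2.88, 2.69 and 2.60 FPKM at 2C, against 0.409 and 0.551 FPKM in MII 1 and MII 2 (limma adjusted p = 0.0027), and every 2C value was above both oocyte values. ZNF614 had 5.05, 7.06, 7.89 and 6.77 FPKM at 2C, against 1.40 and 2.31 FPKM in MII 1 and MII 2 (limma adjusted p = 0.0056).

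The most abundant transcript of these libraries was PTTG1, which encodes securin, the inhibitor of the protease that separates sister chromatids. It stood at 17791, 17673, 15523 and 16366 FPKM at 2C, against 32771 and 24184 FPKM in MII 1 and MII 2, lower in every 2C library with a difference of -0.74 that was not called (limma adjusted p = 0.023). CKS1B, a small partner of cyclin-dependent kinases, fell to 6918, 6047, 7034 and 6531 FPKM at 2C, against 17634 and 10395 FPKM in MII 1 and MII 2 (difference -1.03, limma adjusted p = 0.016), a call that did not hold without each library or under all 3 other scales. PAIP1, which binds the poly(A)-binding protein, was the abundant transcript with the opposite order, at 4649, 6534, 7505 and 6658 FPKM at 2C, against 3124 and 3688 FPKM in MII 1 and MII 2 (difference 0.88, limma adjusted p = 0.024, not called).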
